A study of Homo sapiens with 10 samples.

Results

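Guanylate-binding proteins (GBPs) and a group of poly(ADP-ribose) polymerase (PARP) genes that respond to interferon were followed in human cancer cells with a synthetic transcription factor. The genes were taken by symbol from the deposited tables: GBP1, GBP2, GBP3, GBP4 and GBP5, the PARP genes PARP9, PARP10, PARP12 and PARP14, and DTX3L, which encodes the partner ubiquitin ligase of PARP9. All 10 were found, out of 23243 genes shared by the 4 tables.

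The synthetic factor, PcTF, joins the histone-binding chromodomain of the polycomb protein CBX8 to the red fluorescent protein mCherry and the activation domain VP64, and was built to raise genes marked by trimethylated histone H3 lysine 27. RNA-seq was available for the osteosarcoma line U-2 OS, the neuroblastoma line SK-N-SH and the leukaemia line K562. Each line had 1 library from cells transfected with 2 µg of PcTF plasmid and 1 mock library from cells given the lipid vehicle without plasmid, harvested by 48 h for K562 and by 96 h for the other lines. PcTF was expressed constitutively from the plasmid in these lines. Because the mock cells received no DNA, PcTF and the plasmid itself cannot be told apart in these comparisons. According to the study, not all transfected cells showed the fluorescent tag, fewer did so at later times, and no sorting is described. Stable U-2 OS lines carried an integrated transgene under doxycycline control, and both were given 1 µg/mL doxycycline for 96 h: U2OS-PcTF (2 libraries by the labels) and U2OS-dTF (1 library), whose protein lacks the histone-binding domain. The methods state 3 replicates for both stable lines, which does not match these labels. The PcTF value in the stable-line table is a mean of 3 libraries, the 2 stable ones and the PcTF-transfected U-2 OS library. A further library, labelled as U-2 OS with the dTF plasmid, was not analysed here.

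Levels are FPKM, which are read fragments scaled to gene length and to the depth of the library. Differences are given as log2 of the treated over the control FPKM after 0.1 FPKM was added to both, and a gene is called higher or lower at a 2-fold difference on that scale. Since each group was 1 library or a mean deposited without its spread, no difference has a replicate check and no test was possible. Read numbers were estimated from the FPKM, gene length and effective depth. Each read ratio between single libraries has an exact binomial interval at 95%, which covers counting error only. Where a PcTF mean is set over U2OS-dTF, the 95% interval is a Poisson interval on the U2OS-dTF reads alone and takes the mean as exact. Effective depth ran from 4276000 to 7400000 reads over the 7 single-library columns, with 13246 to 16089 genes above 0. CBX8, whose reads include the transgene, was higher with PcTF in each transfected line (0.610 in mock and 6.43 FPKM with PcTF for U-2 OS, 0.287 and 8.85 for SK-N-SH, 1.59 and 14.3 for K562). It was 1.28 FPKM in U2OS-dTF and 4.92 FPKM in stable U2OS-PcTF, derived as described below. Of the markers looked up, 7 of 7 erythroid genes reached 1 FPKM in K562 and 6 of 7 sympathetic neuroblastoma genes did in SK-N-SH, where TH was at 0. Of 6 mesenchymal genes, 3 or 4 reached 1 FPKM in each U-2 OS column, while COL1A2 and TWIST1 were listed at 0 in all of them. In mock SK-N-SH 4 of the 6 reached 1 FPKM. The 6 summed to 737 FPKM there and to 307 FPKM in mock U-2 OS, so they do not mark U-2 OS against SK-N-SH. The summed FPKM of 8 leukocyte markers was 0.168 to 3.22 in every column but those of K562. In bulk RNA, a change in the number of expressing cells and a change in RNA per cell cannot be told apart.

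On hg19, the 5 GBP genes lie in a cluster on the minus strand of chromosome 1, with GBP3 at 89472360–89488549, GBP1 at 89517987–89531043, GBP2 at 89573310–89591799, GBP4 at 89646831–89664633 and GBP5 at 89724634–89738544. PARP9 (minus strand) and DTX3L (plus strand) stand head to head on chromosome 3, where the tables give both the interval 122246760–122294049, and PARP14 lies nearby on the plus strand at 122399672–122449687. PARP12 is on chromosome 7 at 139723549–139763521 and PARP10 is on chromosome 8 at 145051320–145060635, both on the minus strand.

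GBPs are large GTPases that assemble on membranes around intracellular pathogens and assist inflammasome activation, and they are among the genes most strongly induced by interferon gamma. The PARP genes studied here encode mono-ADP-ribosyltransferases or their relatives. PARP9 and DTX3L form a complex that ubiquitylates histones and viral proteins, PARP14 carries macrodomains that bind ADP-ribose, and PARP10 and PARP12 are antiviral transferases. Interferon-stimulated genes are commonly switched on through the interferon-stimulated response element (ISRE) and the gamma-activated site (GAS) in their promoters.

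The promoters are shown because the same short elements recur in them. RefSeq windows of 300 bases (250 before to 50 after the gene start, GRCh38.p14) were held for 7 of the 10 genes, and GBP2, GBP5 and PARP10 had none. The ISRE core was searched as GAAA, any 2 bases and GAAA again, on both strands, so that it reads TTTC, 2 bases and TTTC in some genes, and GAS was searched as TTCNNNGAA. All 7 genes had an ISRE core match in a window, out of 8 windows held for them, whereas 3.57% of 35116 RefSeq windows had a match. PARP9 and DTX3L share theirs, and the genes were chosen as a group that responds to interferon. GAS matches stood in the windows of GBP3 and PARP14, against 7.66% of all windows. Below, 150 bases before to 20 bases after each start are written 5′ to 3′ on the strand of the gene, with ISRE core and GAS matches in capitals.
GBP1, minus strand, chr1:89065189-89065358: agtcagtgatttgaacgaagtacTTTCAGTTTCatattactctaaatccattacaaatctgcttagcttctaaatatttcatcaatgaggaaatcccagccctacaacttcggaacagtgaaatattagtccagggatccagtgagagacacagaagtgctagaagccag
GBP3, minus strand, chr1:89022847-89023016: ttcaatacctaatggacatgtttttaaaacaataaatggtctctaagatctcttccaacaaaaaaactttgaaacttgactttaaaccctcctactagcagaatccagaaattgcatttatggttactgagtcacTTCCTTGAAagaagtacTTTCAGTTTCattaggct
GBP4, minus strand, chr1:89198923-89199092: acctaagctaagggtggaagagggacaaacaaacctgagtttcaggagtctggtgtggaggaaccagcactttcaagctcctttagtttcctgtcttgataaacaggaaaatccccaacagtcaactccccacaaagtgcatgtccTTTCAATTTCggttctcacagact
PARP9, minus strand, chr3:122564281-122564450: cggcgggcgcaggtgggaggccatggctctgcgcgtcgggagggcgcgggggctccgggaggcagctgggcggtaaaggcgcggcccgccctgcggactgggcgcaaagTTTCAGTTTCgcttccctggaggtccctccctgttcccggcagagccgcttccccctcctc
DTX3L, plus strand, chr3:122564188-122564357: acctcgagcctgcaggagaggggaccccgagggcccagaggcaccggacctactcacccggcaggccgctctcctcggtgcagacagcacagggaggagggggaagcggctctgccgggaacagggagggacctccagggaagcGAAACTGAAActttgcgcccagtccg
PARP14, plus strand, chr3:122680689-122680858: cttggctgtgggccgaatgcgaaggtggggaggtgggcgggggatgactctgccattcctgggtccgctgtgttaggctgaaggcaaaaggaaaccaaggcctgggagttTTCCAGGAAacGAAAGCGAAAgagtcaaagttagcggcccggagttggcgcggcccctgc
PARP12, minus strand, chr7:140062932-140063101: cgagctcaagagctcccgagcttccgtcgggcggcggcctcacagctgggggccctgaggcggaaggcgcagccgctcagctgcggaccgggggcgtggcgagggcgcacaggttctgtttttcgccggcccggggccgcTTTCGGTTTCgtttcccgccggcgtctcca

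The capitals in the PARP9 and DTX3L lines are the same bases, chr3:122564332-122564341, read from opposite strands, so 1 element lies across the start of DTX3L and upstream of that of PARP9. Counted from the start, with no base numbered 0, this match ran from -41 to -32 for PARP9 and from -6 to 4 for DTX3L. In GBP1 the match stood furthest upstream, from -127 to -118 of the RefSeq start, but the deposited GBP1 interval begins further upstream and holds it as bases 26 and on. The match ran from 3 to 12 in GBP3, from -4 to 6 in GBP4, from -10 to -1 in PARP12 and from -29 to -20 in PARP14. The deposited PARP12 interval also begins upstream of the RefSeq start and holds the match as bases 761 and on. PARP9 has a second window, at another start, that held no match. A match describes letters and does not show that a protein was bound there.

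**Figure D1:**
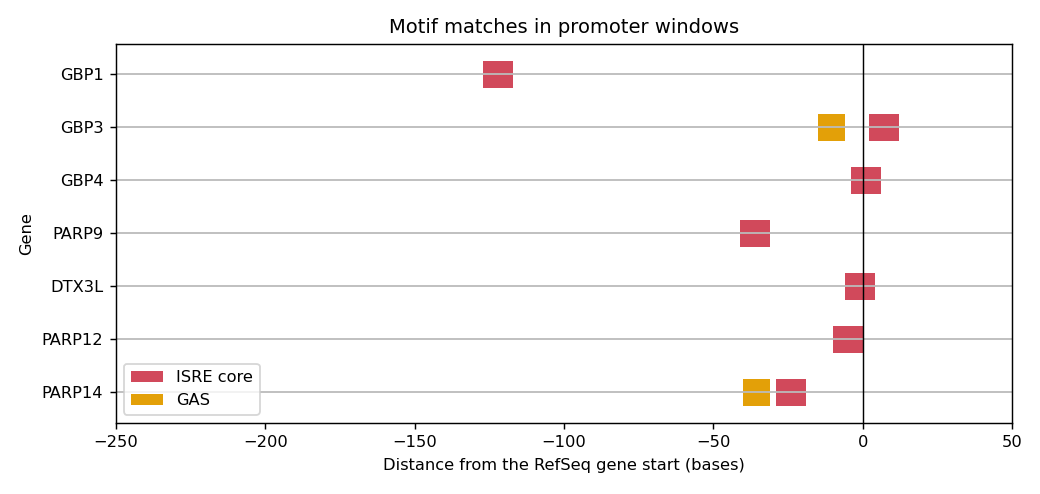
Positions of ISRE core (red) and GAS (yellow) matches in RefSeq promoter windows of 7 genes, with the distance from the gene start in bases on the x axis and 1 gene per row. The ISRE core stood within 41 bases upstream of the start or across or just after it in 6 genes and at -127 to -118 in GBP1.

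In U-2 OS, all 10 genes were 2-fold or more higher in the PcTF-transfected library, against 11.0% of all genes, and none was lower, against 7.33%. GBP5, which promotes inflammasome assembly, differed most: it was 1.28 FPKM in mock and 40.7 FPKM with PcTF (31.9-fold), on 24 and 671 reads (interval on the log2 read ratio 4.41 to 5.64). GBP4, its neighbour on chromosome 1, was 5.20 FPKM in mock and 36.6 FPKM with PcTF (7.03-fold, 2.57 to 3.08). GBP2 was 4.54 and 22.7 FPKM (5.01-fold, 1.89 to 2.78). GBP1, which coats bacteria in the cytosol, was 6.69 and 19.3 FPKM (2.88-fold, 1.17 to 1.91), and GBP3 was 12.5 and 27.7 FPKM (2.22-fold, 0.88 to 1.43). GBP3 was thus the highest GBP in mock cells and GBP5 the lowest, while GBP5 was the highest with PcTF. The 5 GBPs summed to 30.2 FPKM in mock and 147 FPKM with PcTF, of which GBP5 made up 27.7%.

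PARP14 was the most abundant of the 10 genes in U-2 OS. It was 167 FPKM in mock cells and 438 FPKM in transfected cells (2.62-fold, 1.35 to 1.43), and this rests on 6094 and 14040 reads. Its mock level already exceeded that of 99.1% of genes. PARP9 was 39.7 and 121 FPKM (3.05-fold, 1.46 to 1.75), and DTX3L was 34.9 and 79.5 FPKM (2.28-fold, 1.07 to 1.30). Both genes of this head-to-head pair were thus higher, with PARP9 at 1.14 times DTX3L in mock and 1.52 times with PcTF. PARP12 was 1.54 and 5.33 FPKM (3.46-fold, 1.06 to 2.58). PARP10 was 0.185 and 1.34 FPKM on 3 and 19 reads, a log2 read ratio of 2.85 with an interval of 1.09 to 5.25. The median log2 difference was 2.30 over the GBPs and 1.60 over the PARPs and DTX3L, compared with 0.00 over all genes and 0.06 over genes with a mean of 1 FPKM or more. With 1 FPKM added in place of 0.1, PARP10 differed by 0.98 on the log2 scale and 9 of 10 genes passed 2-fold. At 4-fold, 4 of 10 passed: GBP2, GBP4, GBP5 and PARP10.

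**Figure D2:**
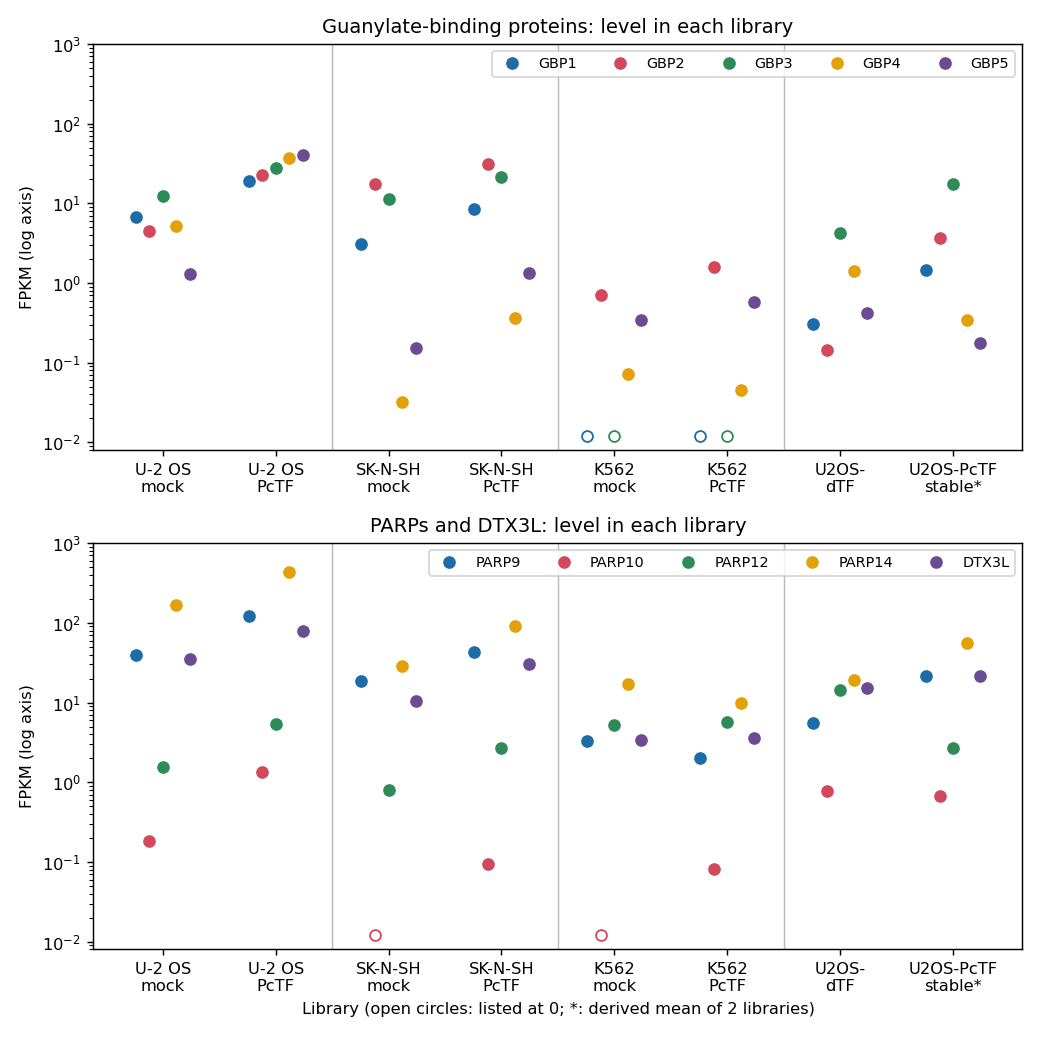
FPKM (log axis) of the 5 GBP genes (upper panel) and of the 4 PARP genes and DTX3L (lower panel) in each library, 1 point per gene, with genes listed at 0 as open circles and the stable U2OS-PcTF value derived from the deposited mean. The GBPs lay between 1.28 and 12.5 FPKM in mock U-2 OS and between 19.3 and 40.7 FPKM after PcTF transfection, and GBP1 and GBP3 were at 0 in both K562 libraries.

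In SK-N-SH, 7 of 10 genes were 2-fold or more higher with PcTF, against 7.19% of all genes, and none was lower, against 4.07%. PARP14 was 28.8 FPKM in mock and 91.9 FPKM with PcTF (3.20-fold, interval 1.58 to 1.77). DTX3L was 10.5 and 30.4 FPKM (2.90-fold, 1.35 to 1.73), and PARP9 was 18.6 and 42.6 FPKM (2.30-fold, 1.00 to 1.40). Those differences were larger than counting error, as was that of PARP12, which was 0.804 and 2.66 FPKM on 12 and 48 reads (0.77 to 2.75). GBP1 was 3.11 and 8.46 FPKM (2.72-fold, 0.95 to 1.98).

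GBP2 and GBP3, the most abundant GBPs of this line, differed by less than 2-fold. GBP2 was 17.5 and 31.5 FPKM (1.80-fold, 0.61 to 1.08) and GBP3 was 11.5 and 21.6 FPKM (1.88-fold, 0.64 to 1.18), so both intervals lie above 0 and reach past 2-fold. GBP5 and GBP4 were scarce, unlike in U-2 OS. GBP5 was 0.154 and 1.34 FPKM on 3 and 33 reads (log2 read ratio 3.16, 1.49 to 5.51). GBP4 was 0.0324 and 0.368 FPKM on 1 and 14 reads (3.51, 0.79 to 8.91), and with 1 FPKM added it differed by 0.41. PARP10 was listed at 0 in mock and 0.0943 FPKM with PcTF, which is 2 reads, too few for a ratio. The median log2 difference was 1.42 over the GBPs and 1.53 over the PARPs and DTX3L, compared with 0.00 over all genes. At 4-fold only GBP5 of the 10 passed.

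K562 differed from the other lines in level. GBP1 and GBP3 were listed at 0 in both libraries, where 3 reads would have given 0.143 to 0.239 FPKM, and GBP4 was 0.0719 and 0.0454 FPKM on 2 reads each. The 5 GBPs summed to 1.13 FPKM in mock and 2.20 FPKM with PcTF. GBP2, the main GBP there, was 0.714 and 1.58 FPKM on 8 and 28 reads (2.21-fold, interval -0.03 to 2.49), the only gene of the 10 past 2-fold, against 21.6% of all genes that were higher and 7.98% that were lower. Genes with a mean of 1 FPKM or more shifted up by a median of 0.28 in K562, and relative to that shift GBP2 was at 0.77 and no member passed 2-fold upward. GBP5 was 0.343 and 0.577 FPKM on 6 and 16 reads (-0.68 to 2.39).

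PARP14 and PARP9 had lower levels in the PcTF-transfected K562 library, both by less than 2-fold. PARP14 was 16.9 FPKM in mock and 9.78 FPKM with PcTF on 593 and 542 reads (log2 difference -0.79, interval -0.96 to -0.62), within 2-fold. Relative to the median shift it was at -1.06, past 2-fold. PARP9 was 3.29 and 2.02 FPKM (-0.68, interval -1.38 to -0.09). DTX3L, on the other side of the shared promoter, was 3.42 and 3.54 FPKM (0.05, interval -0.34 to 0.45), and PARP12 was 5.24 and 5.75 FPKM (0.13, interval -0.30 to 0.58). PARP10 was listed at 0 and 0.0814 FPKM (2 reads). K562 was also harvested earlier than the other lines, and line and time cannot be told apart.

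**Figure D3:**
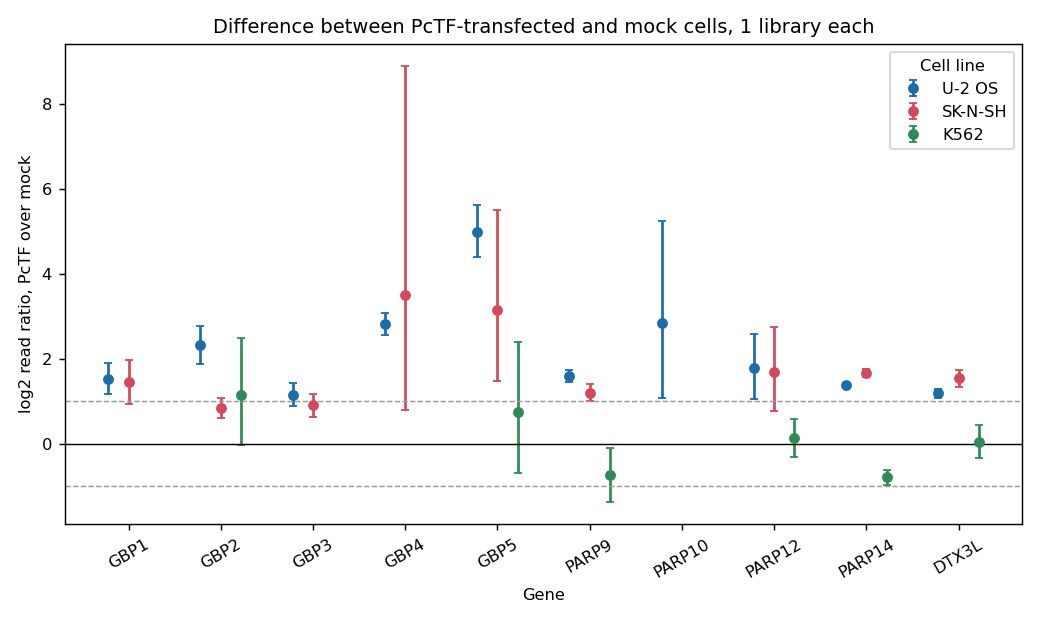
Log2 ratio of estimated reads per depth, PcTF-transfected over mock, for each gene in the 3 cell lines (1 library per group), with bars for exact 95% binomial intervals that cover counting error only and dashed lines at 2-fold. Points are missing where both libraries had 3 reads or fewer. Every point of U-2 OS and every point of SK-N-SH lay above 0, while PARP9 and PARP14 lay below 0 in K562.

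The stable lines set PcTF against U2OS-dTF, whose protein lacks the histone-binding domain. With 1 U2OS-dTF library, the domain and any other difference between the lines cannot be told apart. In the deposited mean of 3 PcTF libraries, 8 of 10 genes were 2-fold or more above U2OS-dTF, against 31.4% of all genes, and 1 was lower (PARP12), against 9.17%. That mean is dominated by the transfected library for many of these genes. Its share of the 3-library sum was 99.1% for GBP5, 98.2% for GBP4, 86.8% for GBP1, 79.8% for PARP14, 75.4% for GBP2, 73.8% for PARP9 and 65.1% for DTX3L, and 43.9% to 49.8% for GBP3, PARP10 and PARP12. Over genes with a mean of 1 FPKM or more the median share was 28.9%, and 36.5% over those that were 2-fold higher in transfected U-2 OS. The transfected library was also 1 side of the U-2 OS comparison above, so the comparisons share it.

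**Figure D4:**
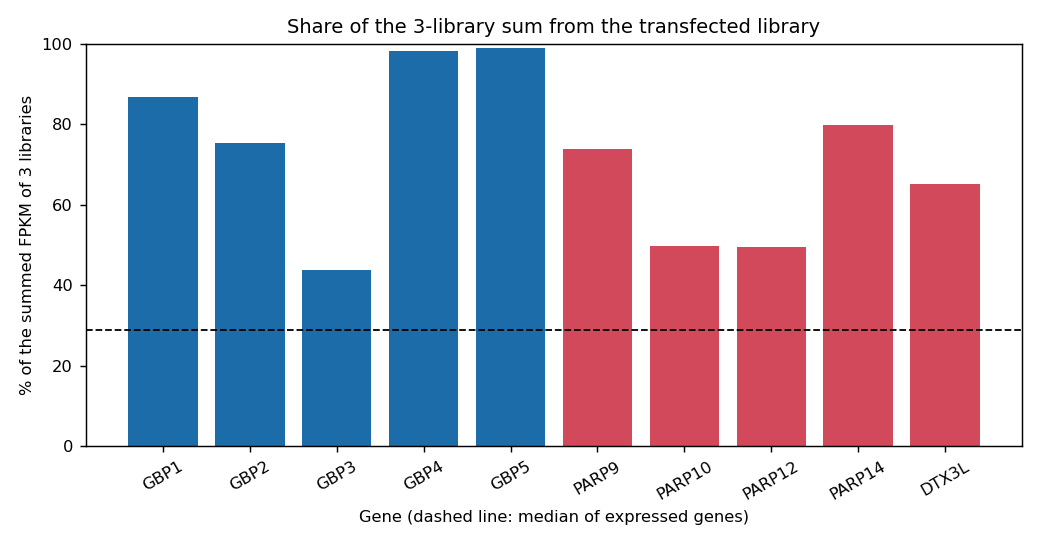
Share of the summed FPKM of 3 PcTF libraries that came from the transfected U-2 OS library, in percent, for each gene (GBPs blue, PARPs and DTX3L red), with a dashed line at the median of genes with a mean of 1 FPKM or more. The shares ran from 43.9% (GBP3) to 99.1% (GBP5), above the median of 28.9%.

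A value for stable U2OS-PcTF alone, the mean of its 2 libraries, was derived by taking the transfected library out of the deposited mean. On those values 5 of 10 genes were 2-fold or more above U2OS-dTF (31.0% of all genes) and 2 were below it (8.61%). GBP2 was 0.144 FPKM in U2OS-dTF, which is 2 reads, and 3.71 FPKM in stable U2OS-PcTF (log2 ratio 4.68, interval from the U2OS-dTF reads 2.83 to 7.73). GBP3 was 4.26 and 17.7 FPKM (4.17-fold), and GBP1 was 0.303 FPKM on 5 reads and 1.46 FPKM (4.83-fold, interval 1.05 to 3.89). PARP9 was 5.60 and 21.5 FPKM (3.84-fold) and PARP14 was 19.0 and 55.6 FPKM (2.92-fold), whereas DTX3L was 15.2 and 21.3 FPKM (1.40-fold). The spread between the 2 stable libraries is unknown, so none of these differences has a replicate error.

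On the derived values GBP4 and GBP5 went the other way. The transfected library made up 98.2% and 99.1% of their 3-library sums, so their stable values are small remainders. No interval given here covers the error of that subtraction. GBP4 was 1.42 FPKM in U2OS-dTF and 0.343 FPKM in stable U2OS-PcTF (log2 difference -1.78), and GBP5 was 0.415 and 0.176 FPKM on 9 U2OS-dTF reads (-0.90, interval on the log2 ratio -2.16 to -0.11), although the deposited mean put both above U2OS-dTF, at 12.4 FPKM (3.04) and 13.7 FPKM (4.74). PARP12 was 14.3 FPKM in U2OS-dTF, its highest level in any column, and 2.71 FPKM in stable U2OS-PcTF (-2.36). PARP10 was 0.780 and 0.674 FPKM (-0.19, interval -0.93 to 0.62), a difference within the counting error of the U2OS-dTF reads alone. Genes with a mean of 1 FPKM or more were shifted up by a median of 0.55 over U2OS-dTF, and relative to that shift 4 genes were 2-fold higher (GBP1, GBP2, GBP3, PARP9) and 3 lower (GBP4, GBP5, PARP12), with PARP14 at 0.99 and DTX3L at -0.07. The same shift was 0.51 for the deposited mean, relative to which 7 genes were higher and DTX3L was at 0.90.

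The U2OS-dTF library itself stood below mock-transfected U-2 OS for 8 of 10 genes at 2-fold (26.5% of all genes were lower) and above it for PARP10 and PARP12 (17.4% were higher). PARP14 was 167 FPKM in mock and 19.0 FPKM in U2OS-dTF (8.77-fold lower, interval on the log2 read ratio -3.24 to -3.03), and PARP9 was 39.7 and 5.60 FPKM (7.08-fold lower). GBP1 was 6.69 and 0.303 FPKM (22.1-fold lower, -6.03 to -3.09), while PARP12 was 1.54 and 14.3 FPKM (9.30-fold higher, 2.58 to 3.95). These libraries differ in line, transgene, doxycycline and lipid treatment, which cannot be told apart, and their tables were normalized separately. Compared with mock cells, the derived stable U2OS-PcTF mean was 2-fold higher for PARP10 only (0.185 and 0.674 FPKM; 20.8% of all genes were higher) and 2-fold lower for GBP1, GBP4, GBP5 and PARP14 (7.18% were lower). GBP4 was 5.20 FPKM in mock and 0.343 FPKM there, and PARP14 was 167 and 55.6 FPKM. GBP3, at 12.5 and 17.7 FPKM, and GBP2, at 4.54 and 3.71 FPKM, were within 2-fold.

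**Figure D5:**
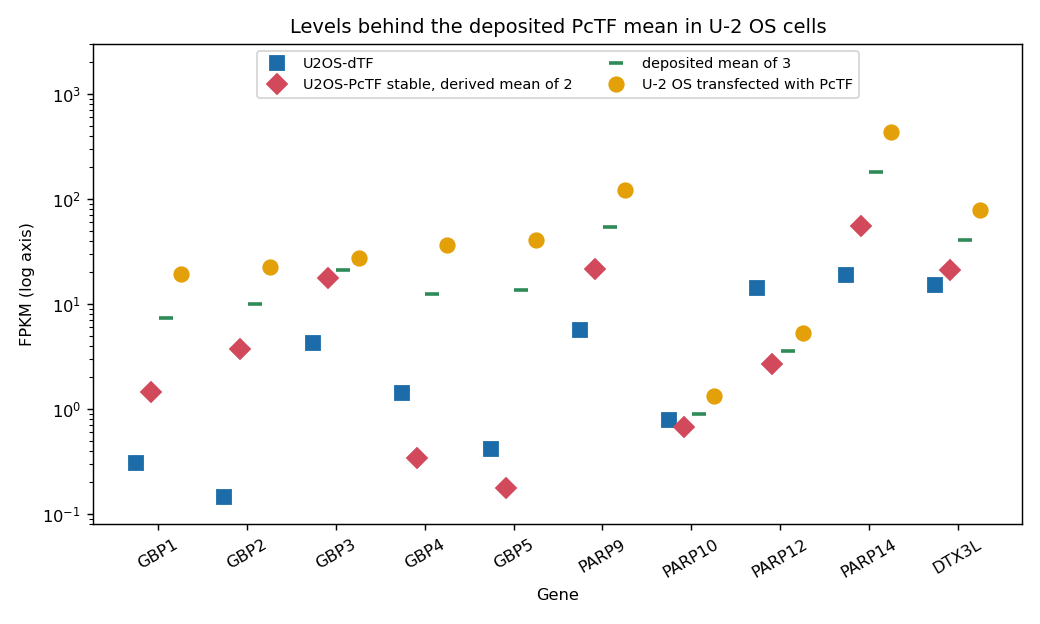
FPKM (log axis) of each gene in U2OS-dTF, in the derived mean of the 2 stable U2OS-PcTF libraries, in the deposited mean of 3 and in the transfected U-2 OS library that is part of it. For GBP4 and GBP5 the stable value (0.343 and 0.176 FPKM) lay below U2OS-dTF, while the deposited mean (12.4 and 13.7 FPKM) lay above it.

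Set side by side over 8 columns (the 7 single libraries and the derived stable mean), the genes differed in where they were high. PARP14 was the highest of the 10 genes in every column, from 9.78 FPKM (transfected K562) to 438 FPKM (transfected U-2 OS), and made up 34.6% to 68.6% of the summed FPKM of the PARPs and DTX3L. The leading GBP depended on the cells: GBP2 in both SK-N-SH and both K562 libraries, GBP3 in mock U-2 OS and both stable lines, and GBP5 in transfected U-2 OS. PARP12 alone had its highest level in U2OS-dTF. GBP2 was highest in transfected SK-N-SH, and the other 8 genes in transfected U-2 OS. With 1 library per column, neighbours in these orders cannot be told apart beyond counting error.

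Genes that work with the 10 were read from fixed lists. IRF1, an activator of GBP genes, was 1.59 FPKM in mock and 6.68 FPKM in transfected U-2 OS, against 1.09 and 4.34 for SK-N-SH and 2.29 and 2.13 for K562. It was thus higher with PcTF in the lines where most of the 10 genes were, and within 2-fold in K562. TYK2, a kinase of the type I interferon receptor, was 1.01 FPKM in mock and 2.36 FPKM in transfected U-2 OS. In U2OS-dTF and stable U2OS-PcTF, TYK2 was 0.426 and 2.74 FPKM. IRF1 was 0.824 and 1.47 FPKM there (log2 difference 0.76), within 2-fold.

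Interferon ligands were near the limit of detection. IFNB1 was listed at 0 in mock U-2 OS and 0.734 FPKM with PcTF, and IFNA1 was listed at 0 in mock SK-N-SH and 0.237 FPKM with PcTF. IFNG and IL29 were at 0 in every column. Among 16 genes typical of the interferon gamma response, 9 were 2-fold higher in transfected U-2 OS, against 11.0% of all genes. In transfected SK-N-SH 6 were, against 7.19%. Both counts include genes that stayed under 1 FPKM. In K562 CXCL10 and CD274 were higher (2 genes, against 21.6% of all genes) and WARS, APOL1 and FCGR1A lower (3 genes, against 7.98%). The chemokine gene CXCL10 was 8.49 FPKM in mock and 227 FPKM in transfected U-2 OS. It was listed at 0 in U2OS-dTF and 0.104 FPKM in stable U2OS-PcTF, a small derived remainder of a deposited mean of 75.8 FPKM. IDO1, a tryptophan-degrading enzyme, was listed at 0 in mock and 2.16 FPKM in transfected U-2 OS. HLA-DRA, HLA-DMA, TAP1, PSMB8 and PSMB9 were listed at 0 in every column and so give no information on antigen presentation here.

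Of 7 other interferon-inducible GTPases and relatives, 4 were 2-fold higher in U-2 OS: GBP6, IRGM, MX2 (0.445 and 22.3 FPKM) and the antiviral enzyme RSAD2 (3.28 and 63.3 FPKM), whereas the immunity-related GTPase-like gene IRGQ was 1.40 and 1.55 FPKM. In SK-N-SH 3 of the 7 were higher (RSAD2, MX1 and MX2), and in K562 3 were (GBP7, MX1 and MX2), where MX1 was 0.402 FPKM in the mock library and 2.08 FPKM in the transfected one. Of 13 other PARP family genes, 3 were higher in U-2 OS, none in SK-N-SH and none in K562, where PARP2 and PARP6 were lower. The 3 were PARP3, ZC3HAV1 and PARP15, the last at 0.117 and 0.799 FPKM. ZC3HAV1, the zinc-finger antiviral protein, was 29.4 FPKM in mock and 73.6 FPKM in transfected U-2 OS, against 30.2 and 39.7 for SK-N-SH, and the tankyrase gene TNKS was 29.8 and 20.5 FPKM in U-2 OS. Of 4 other Deltex ligase genes, DTX2 was higher in U-2 OS (0.320 and 1.26 FPKM), none was in SK-N-SH and 3 were in K562. These 3 were DTX2, DTX1 (0.0692 and 0.525 FPKM) and DTX4 (0 and 0.121 FPKM). Among 7 genes for removal of ADP-ribose, 3 were higher in U-2 OS, none in SK-N-SH and 1 in K562 (MACROD1). The 3 in U-2 OS were MACROD1 (0.194 and 0.665 FPKM), ADPRH and ADPRHL2 (1.10 and 4.86 FPKM).

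The genes whose profile over the 8 columns on the log2(FPKM + 0.1) scale was most like the mean GBP profile included DDX58 (Pearson r of 0.984), OAS1 (0.978), DDX60 (0.972) and IFI44L (0.971), among 12876 genes. For the PARPs and DTX3L they were CCL20 (0.987), IFIH1 (0.973), TRAF1 (0.960), DDX58 (0.954) and BIRC3 (0.954). The 8 columns include several from the same line and 1 derived from others, so these values are descriptions only. DDX58, which encodes the RNA sensor RIG-I, was 56.7 FPKM in mock U-2 OS, 324 FPKM in transfected U-2 OS and 6.59 FPKM in U2OS-dTF.

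Reads of the GBPs may be split among near-identical copies. Of the 50-base stretches in the GBP1 transcript, 14.0% also occur in another GBP transcript, mainly the pseudogene GBP1P1, compared with 4.18% for GBP3, 1.66% for GBP2, 0.312% for GBP4 and 0 for GBP5. PARP9 and DTX3L overlap by 139 exonic bases (hg19 chromosome 3, 122283286–122283424) on opposite strands, and the sources used here do not state that reads were counted by strand.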

How the data were processed

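Total RNA was amplified to cDNA with the Ovation system and sequenced as 50-base single-end reads. According to the submitters' processing notes and the study's methods, the authors checked reads with FastQC, trimmed them with Trimmomatic, aligned them to hg19 (GRCh37) with TopHat2 2.1.0 and Bowtie2, and computed FPKM with Cuffdiff on a UCSC gene annotation. Tools for counts per gene that the notes also name do not bear on the values used. The FPKM values were used as the authors deposited them, in 4 tables of 23245 genes. Their fold change, p and q columns hold the authors' own comparisons and were not used.

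Of 10 libraries, 9 were used. The deposited PcTF mean was checked against the transfected library: of 16049 genes above 0 there, 325 means matched the transfected value over 3 to within 0.01%, and 10 lay over 1% below it. The stable mean was derived as (3 × mean − transfected) / 2. Log2 differences used 0.1 FPKM and 2-fold over all genes. Depth came from whole-read steps in low FPKM values of 569 single-exon genes (94.3% to 100% of low values within 0.1 read of a whole number, fragments of 200 ± 80 bases, the smallest depth that gave whole reads). The depth includes any scaling by the authors' program. For the 10 genes themselves the fit was looser: of 17 values above 0 and under 20 reads, 12 lay within 0.15 read of a whole number. Gene lengths came from GENCODE v44 exons within the deposited interval. Scripts ran in Python 3.11.15 with numpy 2.4.6, pandas 2.3.3 and scipy 1.17.1 and were tested on simulated data.

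Named genes are the 10 members, up to 3 per list with the largest U-2 OS difference at 1 FPKM or more, and the 5 most similar profiles. A gene that this rule names, and the counts of the interferon signal list that holds it, are not reported here. Counts of 5 or fewer are also spelled out, as are the interferon ligands and antigen presentation genes, which were chosen after their values were seen. Members and lists were chosen with earlier results of these data known. Alternatives were another pseudocount, none, a level filter, 4-fold, 2 rescalings, the stable libraries alone and mock U-2 OS as control.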

Additional observations from a re-analysis of the deposited data

Results flagged for a closer look

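In 6 cases the log2 difference of a gene was positive in transfected U-2 OS and negative in transfected SK-N-SH, transfected K562 or the derived stable mean, each against its own control. Only the sign was compared here. Of the 6, only GBP4 and PARP12, both in the derived stable mean, were 2-fold lower. Genes with 3 reads or fewer in both libraries, such as GBP4 in K562, were left out, and so was the deposited mean, which holds the transfected U-2 OS library. With 1 library per group, or a mean whose spread is unknown, these differences were not tested. In K562, PARP9 was at -0.68 and PARP14 at -0.79 on the log2 scale, against 1.60 and 1.39 in U-2 OS. In the derived stable U2OS-PcTF mean over U2OS-dTF, GBP4 was at -1.78, GBP5 at -0.90, PARP10 at -0.19 and PARP12 at -2.36, against 2.79, 4.89, 2.33 and 1.73 in transfected U-2 OS. The stable and transfected comparisons have different controls, and PARP12 was 14.3 FPKM in U2OS-dTF against 1.54 FPKM in mock U-2 OS. PARP10 rests on 15 reads in U2OS-dTF and 3 reads in mock U-2 OS, and its interval over U2OS-dTF, -0.93 to 0.62, spans 0. The interval of GBP5 was -2.16 to -0.11 on 9 reads in U2OS-dTF. It leaves out the error of taking the transfected library out of the deposited mean, which matters most for GBP4 and GBP5.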

How the results depend on the processing

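No paired analysis was possible because each group in a comparison is 1 library or a deposited mean. In U-2 OS, 9 or 10 genes were higher under every alternative but 4-fold, which left 4, and in SK-N-SH 6 to 8 were, with 1 at 4-fold. The level filter left 9 genes, of which 9 were higher in the former line and 7 in the latter. In K562 the count of genes higher was 1 and became 2 without a pseudocount and 0 with 1 FPKM added, at 4-fold, after centring on the median and after upper quartile scaling. Both rescalings also put 1 gene, PARP14, 2-fold lower in K562, where none was before. For the deposited mean over U2OS-dTF, 8 genes were higher and 1 lower. The stable libraries alone gave 5 and 2, mock U-2 OS as control gave 5 and 0, and at 4-fold none was lower. GBP4 and GBP5 turned to -1.78 and -0.90 with the stable libraries alone, and PARP12 turned to 1.17 with mock U-2 OS as control. Genes under 1 FPKM rest on few reads, which limits GBP4 and PARP10 in SK-N-SH and the GBPs in K562.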
